A study of Homo sapiens with 9 samples.

Results

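The transcription regulators of kidney development PAX2, PAX8, LHX1, SIX2, EYA1, WT1, SALL1 and GATA3 were followed through 9 RNA sequencing libraries of HEK293, a line made from human embryonic kidney cells. They were taken as a list of names, and all 8 were found among the 35876 genes of the deposited table. The cells carried Cas9, an RNA-guided nuclease (CC_Cas9, the Cas9 group, 3 libraries), Cas9 with the Cre recombinase (CC_Cas9_Cre, the Cre group, 3 libraries), or Cas9 with the Flpo recombinase (CC_Cas9_Flpo, the Flpo group, 3 libraries). Cre and Flpo recombine DNA at loxP and FRT sites. Every group thus carried Cas9 and whatever the prefix CC denotes, which the labels do not explain, and no group lacked Cas9. The labels name no target gene, dose, time point or clone, and they do not say whether the libraries of a group came from separate cultures, so p-values measure the spread between these libraries, which may be technical.

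In the embryo, PAX2 and PAX8 mark the intermediate mesoderm from which the kidney arises, and LHX1 acts beside them there and again when nephrons form. SIX2, EYA1, SALL1 and WT1 work in the cap mesenchyme, the pool of nephron progenitors: SIX2 keeps progenitors from differentiating, EYA1 is a phosphatase and transcriptional partner of SIX2 and its relatives, SALL1 is a zinc finger factor, and WT1 is needed for the mesenchyme to survive and later in podocytes. GATA3 belongs to the other partner tissue, the nephric duct and ureteric bud. The mesenchyme secretes GDNF, which draws out the bud through its receptor RET.

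GATA3 and EYA1 were on in all 3 groups, LHX1 was on in the Cas9 and Flpo groups, and SIX2 was on in the Flpo group. WT1 and SALL1 lay near the threshold for this call, and PAX8 and PAX2 were barely detected. A level is given as CPM, the gene's count scaled by the library's total. A gene was called on in a library when the lower bound of the exact Poisson 95% interval of its count lay above 1 CPM, and on in a group when at least 2 of 3 libraries were above. These intervals cover counting error only. SIX2 and LHX1 were below 1 CPM in 0 libraries, so a group in which either was not called on was undecided, not off. By this rule 3 of the 8 genes were on in Cas9 cells, 2 in Cre cells and 4 in Flpo cells. Of 19891 protein-coding genes, 11942, 10202 and 12129 were on in these groups, in the same order from lowest to highest. The 2 on in every group make up 25.0% of the 8, against 46.9% of 19891 protein-coding genes. Olfactory receptor genes, which are used chiefly in the nose, gave 35 of 384 on in every group, or 9.11%.

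Depth was low and followed the groups. The estimated counts summed to between 993902 and 3761779 in the Cas9 libraries, between 213907 and 1701730 in the Cre libraries, and between 4989524 and 8833491 in the Flpo libraries. Cre replicate 2 was the shallowest: a count of 0 there allows up to 14.0 CPM, the level of 3 counts, whereas in Flpo replicate 1 it allows up to 0.340 CPM. Flpo replicate 2 stood apart in another way, with counts in 226 of the 384 olfactory receptor genes against 71 to 93 in the other libraries. The labels' extraction text mentions liver beside the cell line. ALB, the defining gene of hepatocytes, had 5 counts in Flpo replicate 2 and 0 elsewhere. PTPRC, which marks blood cells, had 1 count in Flpo replicate 1, 4 in Flpo replicate 2 and 0 elsewhere. Of 10 hepatocyte markers TF alone was on in every group (6.16 to 116 CPM), and of 8 blood markers LYZ alone (23.9 to 322 CPM). The 10 hepatocyte markers summed to 21.8 to 66.4 CPM in the Cas9 group, 42.9 to 121 in the Cre group and 6.76 to 85.6 in the Flpo group, and FGB had no count. The 8 blood markers summed to 76.0 to 306, 155 to 324 and 33.1 to 135 CPM, and CD3E had no count. Of 8 filament and adhesion genes listed for HEK293, 5 were on in every group, among them VIM at 206 to 1118 CPM and NEFL at 6.61 to 70.7 CPM, while NEFM, NEFH and INA had medians of 0.566, 0 and 0.200 CPM. In these bulk libraries, a smaller share of cells with a transcript and less of it per cell cannot be told apart.

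**Figure D1:**
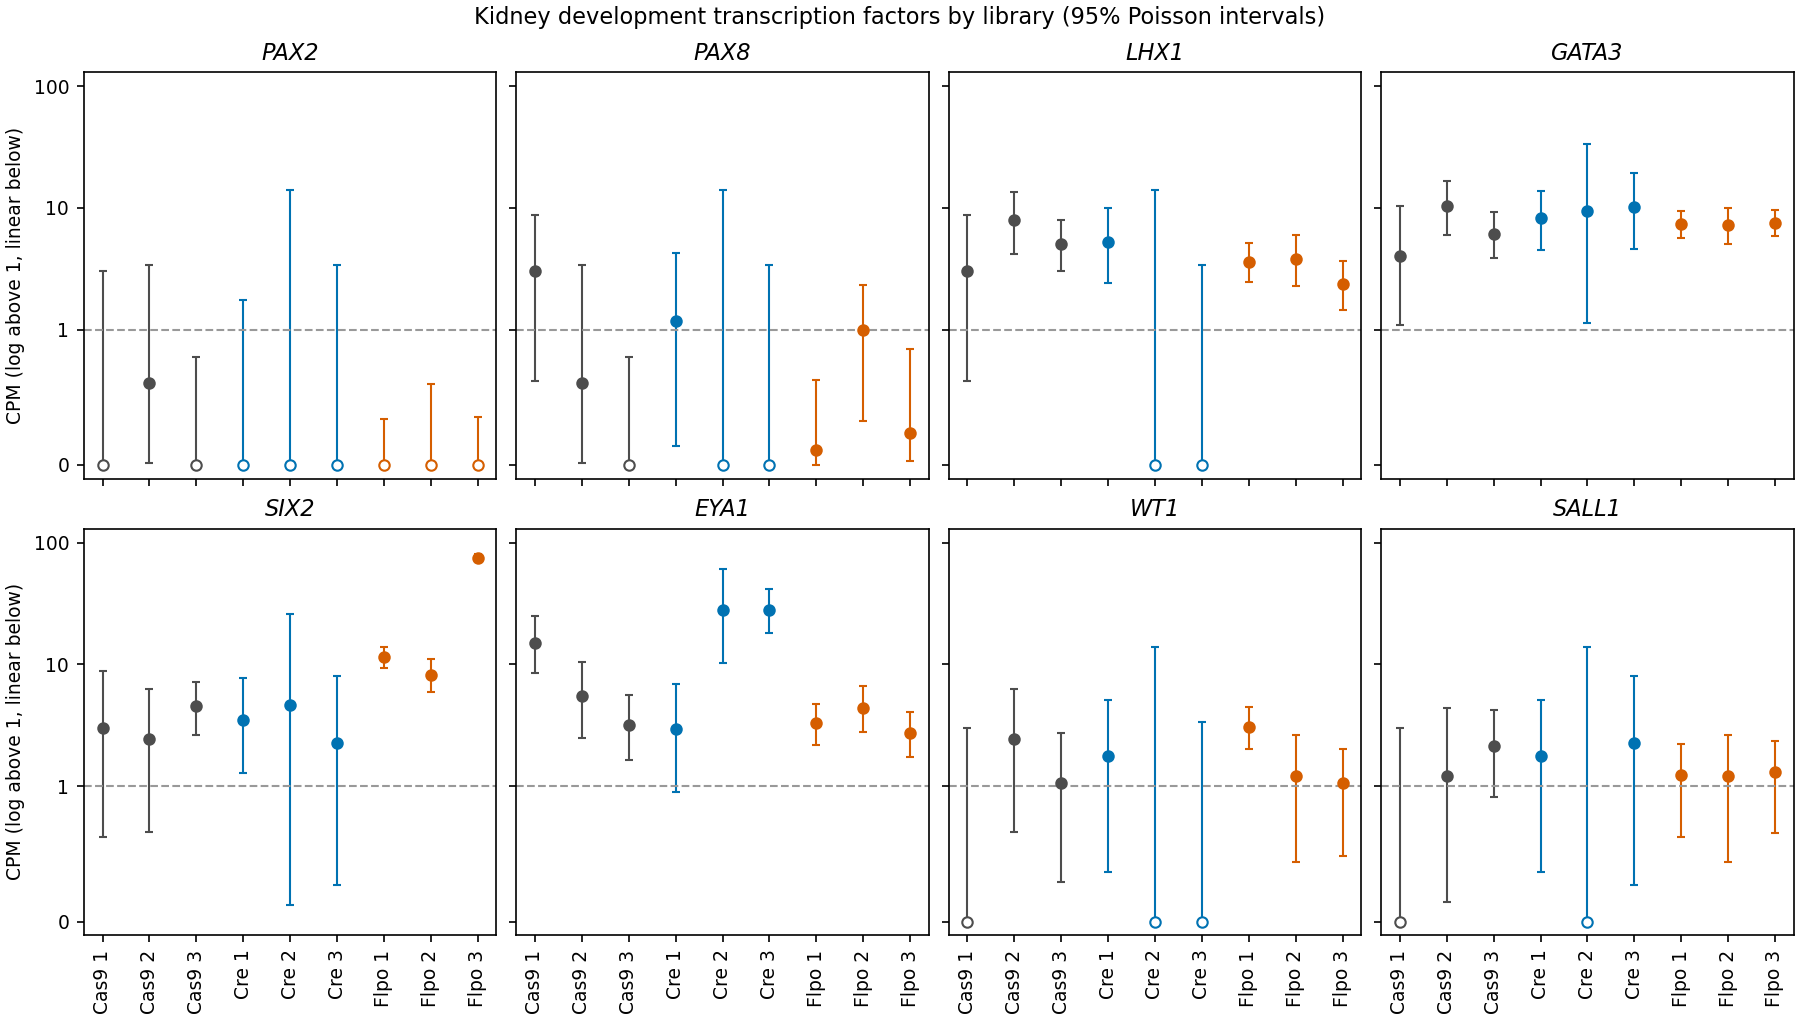
CPM of the 8 genes in each of the 9 libraries, with exact Poisson 95% intervals from counting error only; open points are counts of 0, whose bar ends at the level of 3 counts, and the dashed line is 1 CPM. The axis is logarithmic above 1 and linear below. GATA3 lies above the line in all 9 libraries, SIX2 is highest in the 3 Flpo libraries, EYA1 is highest in Cre replicates 2 and 3, and PAX2 has 1 count in all.

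SIX2 was the member whose level differed most between groups, and PAX2 the one nearest to absent, so the 250 bases upstream of their RefSeq starts (GRCh38.p14) are shown, 5′ to 3′ on the gene's strand, with each CG in capitals. SIX2 has 1 such window, at chr2:45009453-45009702 on the minus strand. PAX2 has 2 on the plus strand, at chr10:100735146-100735395 and, for a start farther into the gene, at chr10:100745332-100745581.
SIX2: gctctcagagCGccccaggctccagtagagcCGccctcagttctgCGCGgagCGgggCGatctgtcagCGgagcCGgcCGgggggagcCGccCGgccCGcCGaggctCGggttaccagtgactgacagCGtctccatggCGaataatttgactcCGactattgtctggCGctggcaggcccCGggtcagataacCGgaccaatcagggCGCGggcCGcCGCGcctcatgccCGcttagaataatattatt
PAX2 upstream start: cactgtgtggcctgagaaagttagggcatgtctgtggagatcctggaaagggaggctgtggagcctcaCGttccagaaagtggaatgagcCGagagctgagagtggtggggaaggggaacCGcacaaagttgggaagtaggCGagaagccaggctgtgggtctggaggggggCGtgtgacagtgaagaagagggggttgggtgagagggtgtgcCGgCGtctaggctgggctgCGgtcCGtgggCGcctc
PAX2 inner start: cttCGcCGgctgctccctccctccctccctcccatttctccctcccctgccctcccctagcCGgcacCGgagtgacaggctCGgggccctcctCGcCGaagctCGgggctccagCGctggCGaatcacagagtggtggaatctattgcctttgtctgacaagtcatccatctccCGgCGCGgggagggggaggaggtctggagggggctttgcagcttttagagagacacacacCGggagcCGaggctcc
The SIX2 window held 26 CG, more than 74.8% of 21016 windows of protein-coding genes, whose median was 17. The PAX2 windows held 10 and 15 CG, more than 34.0% and 44.7% of those windows. The letters GGGCGG, the core of a GC box, occur in the SIX2 window on the strand opposite to that printed, and on no strand of either PAX2 window; 54.4% of windows hold them on at least 1 strand. TATAAA, the core of a TATA box, occurs in none of the 3 windows, and 8.78% of windows hold it. A match here describes the letters and no binding was measured. RefSeq windows were matched for 5 of the 8 genes. Those of GATA3 held 11, 16, 15, 30, 26 and 4 CG, those of WT1 19, 13, 18 and 3, and that of PAX8 11. A link between CG content and level was not tested.

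PAX2 and PAX8, the paired-box factors that act earliest, were the lowest of the 8. PAX2 (chromosome 10, 100735603 to 100829941, plus strand, GENCODE 29 on GRCh38) had a single count in all 9 libraries, in Cas9 replicate 2. Pooled over the 31463858 counts of the 9 libraries, most of them from the Flpo group, this is 0.0318 CPM (exact Poisson 95% interval 0.000805 to 0.177). PAX2 was below 1 CPM in 4 libraries, and in the other 5 the depth could not place it. PAX8 (chromosome 2, 113215997 to 113278950, minus strand) had counts of 3, 1 and 0 in Cas9 replicates 1 to 3, of 2, 0 and 0 in the Cre replicates, and of 1, 5 and 2 in the Flpo replicates. Its 14 counts gave a pooled level of 0.445 CPM (0.243 to 0.747), with 3 libraries below 1 CPM, none above and 6 undecided. The 9 PAX genes were not uniformly low: PAX6, a factor of eye and brain, was on in all 9 libraries at 13.1 to 30.0 CPM. Exons of PAX8 overlap those of the antisense gene PAX8-AS1, those of WT1 overlap WT1-AS, and those of LHX1 and EYA1 overlap unnamed antisense transcripts, and the use of strand is not given in the sources used here. Reads of the partners could then have been counted with either gene.

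LHX1, a LIM homeobox factor of early nephrons (chromosome 17, 36936785 to 36944612, plus strand), stood at 3.02, 7.91 and 5.05 CPM in the Cas9 libraries, from 3, 13 and 19 counts. The Cre libraries gave 5.29 CPM from 9 counts in replicate 1 and 0 counts in replicates 2 and 3. The Flpo libraries gave 3.62, 3.81 and 2.37 CPM from 32, 19 and 20 counts. The 2 Cre libraries without a count allow up to 14.0 and 3.37 CPM for LHX1, and both limits are above the lowest level among the libraries with counts, 2.37 CPM. Group means were 5.33 ± 2.46 CPM in Cas9, 1.76 ± 3.05 in Cre and 3.27 ± 0.782 in Flpo (SD, n = 3 each).

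GATA3, a zinc finger factor of the ureteric bud (chromosome 10, 8045378 to 8075203, plus strand), was the steadiest of the 8. Its levels were 4.02, 10.3 and 6.11 CPM in the Cas9 libraries, 8.23, 9.35 and 10.1 CPM in the Cre libraries, and 7.36, 7.22 and 7.59 CPM in the Flpo libraries. It was above 1 CPM in all 9 libraries, although the value of Cre replicate 2 rests on 2 counts. The Cre libraries all lay above the Flpo libraries in CPM, and all lay below them after TMM scaling, edgeR's correction of library totals for composition. Of the 11905 genes tested, 28.6% had all Cre libraries above all Flpo libraries in CPM, and 27.9% had them all below after TMM scaling. Group means were 6.83 ± 3.22 CPM in Cas9, 9.23 ± 0.941 in Cre and 7.39 ± 0.187 in Flpo (SD, n = 3 each).

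EYA1 (chromosome 8, 71197433 to 71592025, minus strand) was on in every group but uneven within 2 of them. The Cas9 libraries read 15.1, 5.48 and 3.19 CPM, the Cre libraries 2.94, 28.1 and 28.0 CPM, and the Flpo libraries 3.28, 4.41 and 2.73 CPM. Cas9 replicate 1 and Cre replicates 2 and 3 were thus high and the other 6 libraries low, so the groups overlap. Without Cre replicate 2 or Cre replicate 3, EYA1 was no longer on in the Cre group. The EYA1 level of Cre replicate 2 comes from 6 counts and that of Cre replicate 3 from 25. EYA1 was above 1 CPM in 8 of 9 libraries, Cre replicate 1 being undecided at 5 counts. It was the only member whose estimated counts were not whole numbers, which was so in all 9 libraries, and 1.25% of the 24-base words of its transcripts recur in transcripts of at least 10 other genes, against 0 in SIX2, GATA3, LHX1 and PAX2.

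The 3 libraries high in EYA1 were the 3 shallowest of the 9, with totals of 993902, 213907 and 891567 estimated counts against 1643166 or more in the others. They also had higher readings for genes of other tissues. The 384 olfactory receptor genes averaged 11.8 CPM in Cas9 replicate 1, 19.4 in Cre replicate 2 and 13.5 in Cre replicate 3. In the 6 libraries low in EYA1 they averaged 1.45 to 7.17 CPM, apart from Flpo replicate 2 at 23.4 CPM. All 6 fibroblast markers (COL1A1, COL1A2, COL3A1, DCN, LUM and PDGFRB) had a count in every library, and none was at 0. Their summed level was 279 to 1084 CPM in the Cas9 group, 663 to 8129 CPM in the Cre group and 188 to 214 CPM in the Flpo group. It was highest in Cre replicates 2 and 3 and Cas9 replicate 1, at 8129, 1807 and 1084 CPM. The part of depth and of these measures in the EYA1 level was not tested.

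**Figure D2:**
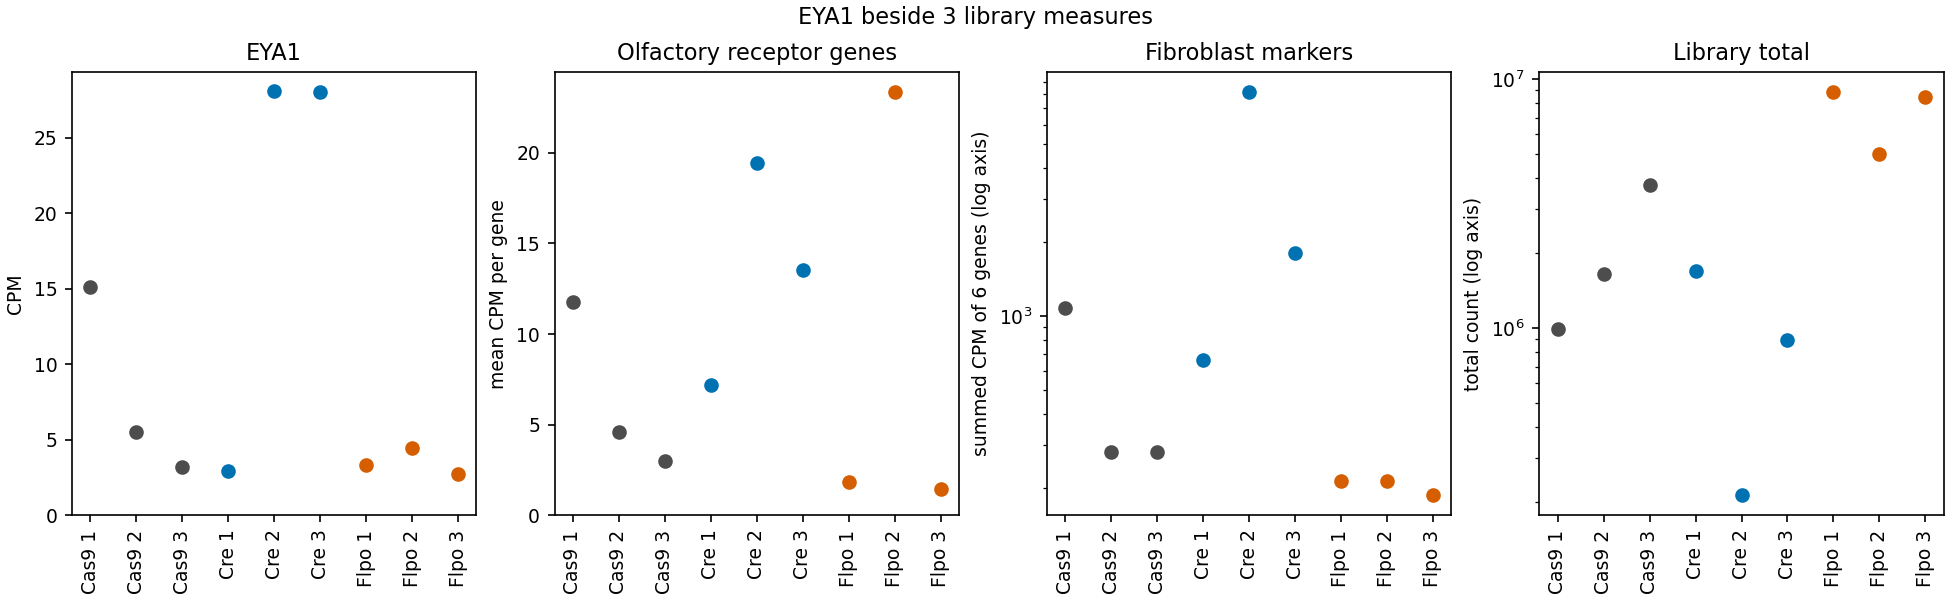
EYA1 in CPM, the mean CPM of 384 olfactory receptor genes, the summed CPM of 6 fibroblast markers (log axis) and the total count (log axis), 1 point per library and no error bar. Cas9 replicate 1 and Cre replicates 2 and 3 are the 3 highest libraries for EYA1 and for the fibroblast markers and the 3 lowest in total; Flpo replicate 2 is the highest for the olfactory receptor genes and low for EYA1.

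WT1 and SALL1 lay at the limit of detection. WT1 (chromosome 11, 32387775 to 32435630, minus strand) had 0, 4 and 4 counts in the Cas9 libraries, 3, 0 and 0 in the Cre libraries, and 27, 6 and 9 in the Flpo libraries. In CPM the Flpo values were 3.06, 1.20 and 1.07, and Flpo replicate 1 was the only library above 1 CPM by the interval. SALL1 (chromosome 16, 51135975 to 51151367, minus strand) had 0, 2 and 8 counts in the Cas9 libraries, 3, 0 and 2 in the Cre libraries, and 11, 6 and 11 in the Flpo libraries. The 3 Flpo values for SALL1 were 1.25, 1.20 and 1.30 CPM, and all 9 libraries were undecided. The groups overlap for both genes.

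SIX2 (chromosome 2, 45005161 to 45009430, minus strand, a single annotated transcript with no overlapping exon of another gene) was higher in Flpo cells than in Cre cells. The Cas9 libraries stood at 3.02, 2.43 and 4.52 CPM, from 3, 4 and 17 counts. The Cre libraries stood at 3.53, 4.68 and 2.24 CPM, from 6, 1 and 2 counts, and the Flpo libraries at 11.5, 8.22 and 75.3 CPM, from 102, 41 and 635 counts. Every Flpo library was above every library of the other groups, and Flpo replicate 3 was far above its own group. By the interval SIX2 was above 1 CPM in 5 libraries, undecided in 4 and below in 0. It was thus not shown to be off in the Cas9 or Cre group. Group means were 3.32 ± 1.08 CPM in Cas9, 3.48 ± 1.22 in Cre and 31.7 ± 37.8 in Flpo (SD, n = 3 each), so the Flpo mean has an SD larger than itself.

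The 3 groups were compared by edgeR's quasi-likelihood test with Benjamini-Hochberg adjustment over the 11905 genes that passed its filter on low counts. SIX2, EYA1 and GATA3 passed the filter and the other 5 did not. SIX2 fell by 4.04 on the log2 scale in Cre against Flpo (SE 0.97, 16.5-fold, adjusted p = 0.0201). It was the 1 member called in that comparison, in which 20.5% of all genes tested were called, 14.3% as lower in the Cre group. Groups that do not overlap, with Cre lower, were found for 14.4% of tested genes in CPM and for 27.9% after TMM scaling. SIX2 was among them on both scales. Relative to the median of all genes, which was -0.34, the SIX2 change was -3.70, and without TMM scaling it was -3.74 relative to a median of 0.44. In Flpo against Cas9, SIX2 had a log2 fold change of 3.67 (SE 0.87) and an adjusted p of 0.0692 (unadjusted p = 0.000967), so no member was called where 0.227% of all genes were. There the groups did not overlap in CPM, with Flpo higher, as was so for 6.16% of tested genes. In Cre against Cas9 the SIX2 log2 fold change was -0.38 (SE 1.00, adjusted p = 0.879). A test for a difference of any kind between the 3 groups called SIX2 (edgeR adjusted p = 0.0203) and 9.51% of all genes; it no longer called SIX2 without Cas9 replicate 2, Cre replicate 2, Cre replicate 3, Flpo replicate 1 or Flpo replicate 3, in fits that called 10, 267, 163, 29 and 101 genes in all against 1132 with all 9 libraries.

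The SIX2 call in Cre against Flpo did not hold without some of the libraries. Without Flpo replicate 3 the log2 fold change was -2.44 and the adjusted p 0.108, in a fit that called 405 of 12352 genes. Without Flpo replicate 1, Cre replicate 2 or Cre replicate 3 the log2 fold change was -4.42, -4.12 or -3.75, with adjusted p-values of 0.0746, 0.0564 and 0.101. Each of those 3 fits called 0 genes of all those tested (12431, 13691 and 13796), so the calls of the whole comparison were lost with that of SIX2. Depth differs between these groups, and with the log2 total of each library as a covariate the change was -2.19 with an adjusted p of 0.870, and 0 of 11905 genes were called. Against the Cas9 group, SIX2 passed the threshold as higher in Flpo with DESeq2 (adjusted p = 0.00295), without the filter (0.00036), and with Flpo replicate 2 left out (0.00549). These fits called 1065 of 11812, 1169 of 25386 and 2685 of 12595 genes, against 27 of 11905. The fibroblast markers COL1A1, COL1A2 and COL3A1 were higher in Cre than in Flpo by 3.19, 3.47 and 3.04 on the log2 scale (edgeR adjusted p = 0.0243, 0.0287 and 0.0210), and the keratins KRT8 and KRT18 fell by 3.36 and 4.43 (adjusted p = 0.0199 and 0.0167). Both keratins are among the 8 filament and adhesion genes listed for HEK293, and NEFL of that list went the other way. The NEFL mean was 46.4 CPM over the Cre libraries and 8.72 CPM for Flpo. DESeq2, with 3976 of 11812 genes called there, called NEFL, and edgeR did not. The part of these markers, and that of depth, in the SIX2 difference was not tested beyond the covariate.

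EYA1 and GATA3 passed no test. For EYA1 the log2 fold changes were 1.08 (SE 0.86, adjusted p = 0.640) in Cre against Cas9, -0.50 (SE 0.81, 0.755) in Flpo against Cas9 and 1.58 (SE 0.84, 0.171) in Cre against Flpo. Without Cre replicate 1, EYA1 was called higher in Cre than in Flpo by 2.18 on the log2 scale (edgeR adjusted p = 0.0492), in a fit that called 3131 of 13788 genes. For GATA3 the same comparisons gave 0.13 (SE 0.65, adjusted p = 0.934), 0.62 (SE 0.60, 0.574) and -0.48 (SE 0.63, 0.575). These p-values do not show that the levels were equal. In Cre against Cas9 no member was called and 0.0% of all 11905 genes were; 879 genes had an unadjusted p under 0.05, no member among them, while DESeq2 called 4 genes there, the fit without the filter 51 of 25386 and limma voom with quality weights 3960 of 11905, again with no member. A fit without the filter gave PAX2, PAX8, LHX1, WT1 and SALL1 adjusted p-values of 0.507 or more in every comparison of groups.

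The 3 genes that followed SIX2 most closely over the 9 libraries by Pearson correlation of log2 CPM, among 7698 genes with a mean of at least 50 counts, were LZIC (0.97), PRSS23 (0.96) and MAT2A (0.96). MAT2A makes S-adenosylmethionine, and PRSS23 is a serine protease. LZIC stood at 5.61 to 19.1 CPM in the Cas9 and Cre libraries and at 106, 32.1 and 350 CPM in the Flpo libraries. PRSS23 was at 484 CPM and MAT2A at 63.5 CPM in Flpo replicate 3, where SIX2 also peaked. The points share the library and its depth, and LZIC, PRSS23 and MAT2A, like SIX2, were each highest in that library.

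GDNF, the signal of the cap mesenchyme, went the other way. It stood at 19.1, 21.9 and 12.8 CPM in the Cas9 libraries, 15.3, 14.0 and 16.8 CPM in the Cre libraries and 1.47, 4.01 and 2.02 CPM in the Flpo libraries. All Flpo libraries lay below all others. Of the genes tested, 28.6% had all Cre libraries above the Flpo libraries and 23.3% had all Flpo libraries below the Cas9 libraries. GDNF was higher in Cre than in Flpo by 1.89 on the log2 scale (SE 0.61, edgeR adjusted p = 0.0444), and by 2.23 relative to the median of all genes; 6.17% of genes were called as higher in Cre. In Flpo against Cas9 its log2 fold change was -2.31 (adjusted p = 0.0791), and in Cre against Cas9 it was -0.43 (adjusted p = 0.763). The call in Cre against Flpo passed in 7 of 18 alternatives, with log2 fold changes from 1.53 to 2.64. It was lost without Cas9 replicate 2 or 3, any 1 of the Cre replicates, or Flpo replicate 1 or 3, with adjusted p-values from 0.0621 to 0.175. Without Cre replicate 2, Cre replicate 3 or Flpo replicate 1 the fit called 0 genes in all. Without Flpo replicate 3, Cas9 replicate 2, Cas9 replicate 3 or Cre replicate 1 it called 405, 1386, 2444 or 3131. The GDNF call was also lost with the log2 total as a covariate (edgeR adjusted p = 0.811), where 0 of 11905 genes were called. Without the filter, with only the groups compared and with a replicate block, GDNF had edgeR adjusted p-values of 0.108, 0.0671 and 0.0810. Those fits called 3613 of 25386, 2161 of 12759 and 1568 of 11905 genes. The edgeR test for any difference between the 3 groups did not call GDNF (adjusted p = 0.0531). The GDNF estimated counts were not whole in 8 of 9 libraries, and 1.89% of its words recur in at least 10 other genes. Comparisons that share the Flpo or the Cas9 libraries are not independent of each other.

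**Figure D3:**
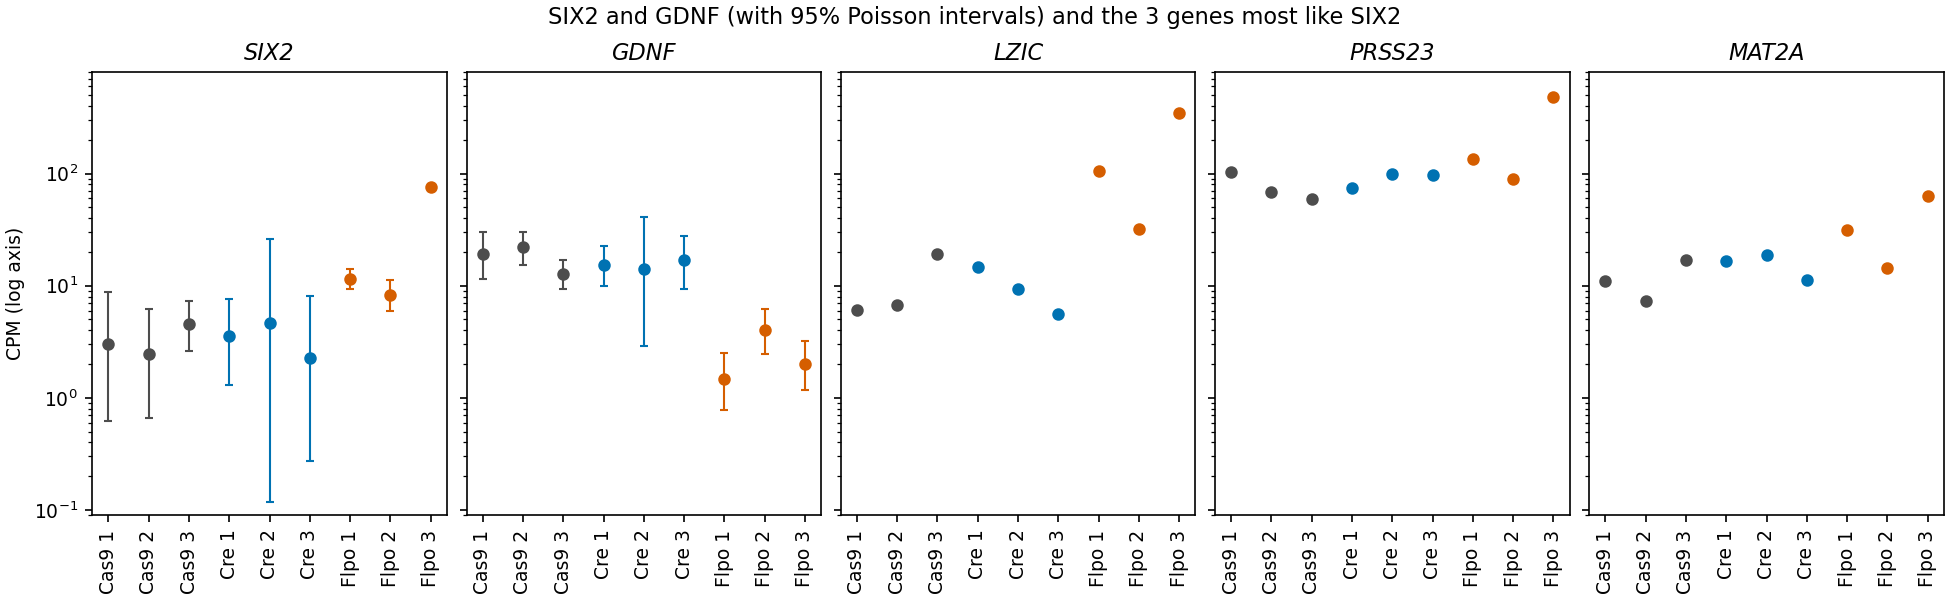
CPM of SIX2 and GDNF with exact Poisson 95% intervals, and of LZIC, PRSS23 and MAT2A without intervals, in the 9 libraries on a log axis. SIX2 is highest in the Flpo libraries, led by replicate 3 at 75.3 CPM, and GDNF is lowest there, at 1.47 to 4.01 CPM.

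Between genes, levels were compared per kilobase of the longest coding transcript. The median over the 9 libraries fell from GATA3 (2.43 CPM per kilobase) through SIX2 (2.05), LHX1 (1.06), EYA1 (1.02), WT1 (0.342), SALL1 (0.237) and PAX8 (0.0571) to PAX2 (0). The ranges of every pair of neighbours in this order overlap. SIX2 was above LHX1 in 8 of 9 libraries and EYA1 above WT1 in 8 of 9, while GATA3 was above SIX2 in 4 of 9. By mean level per kilobase, SIX2 lay above 67.2% of protein-coding genes, GATA3 above 52.9%, EYA1 above 52.3% and LHX1 above 40.1%. WT1 lay above 30.0%, SALL1 above 26.5%, PAX8 above 24.2% and PAX2 above 12.4%. The SIX2 value is carried by Flpo replicate 3.

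Of 22 relatives of SIX2, EYA1, SALL1, GATA3 and LHX1, 8 had a higher median per kilobase than the member: 2 of 4 for SIX2, 2 of 3 for EYA1, 3 of 3 for SALL1, 1 of 5 for GATA3 and 0 of 7 for LHX1. SIX4 had a median of 28.5 CPM per kilobase and SIX5 one of 5.46, against 2.05 for SIX2. Of the EYA phosphatases, EYA3 stood at 17.0, against 1.02 for EYA1. GATA2, a factor of blood progenitors and endothelium, stood at 16.1, though it was at 0 in at least 1 library. SALL2 at 5.09 and SALL4, a factor of pluripotent cells, at 2.80 lay above SALL1. These families were chosen after their values had been seen. Relatives with alike sequence can share reads, and that was not measured. Of the words of SIX4, 3.86% recur in at least 10 other genes, a count that does not measure sharing among relatives.

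**Figure D4:**
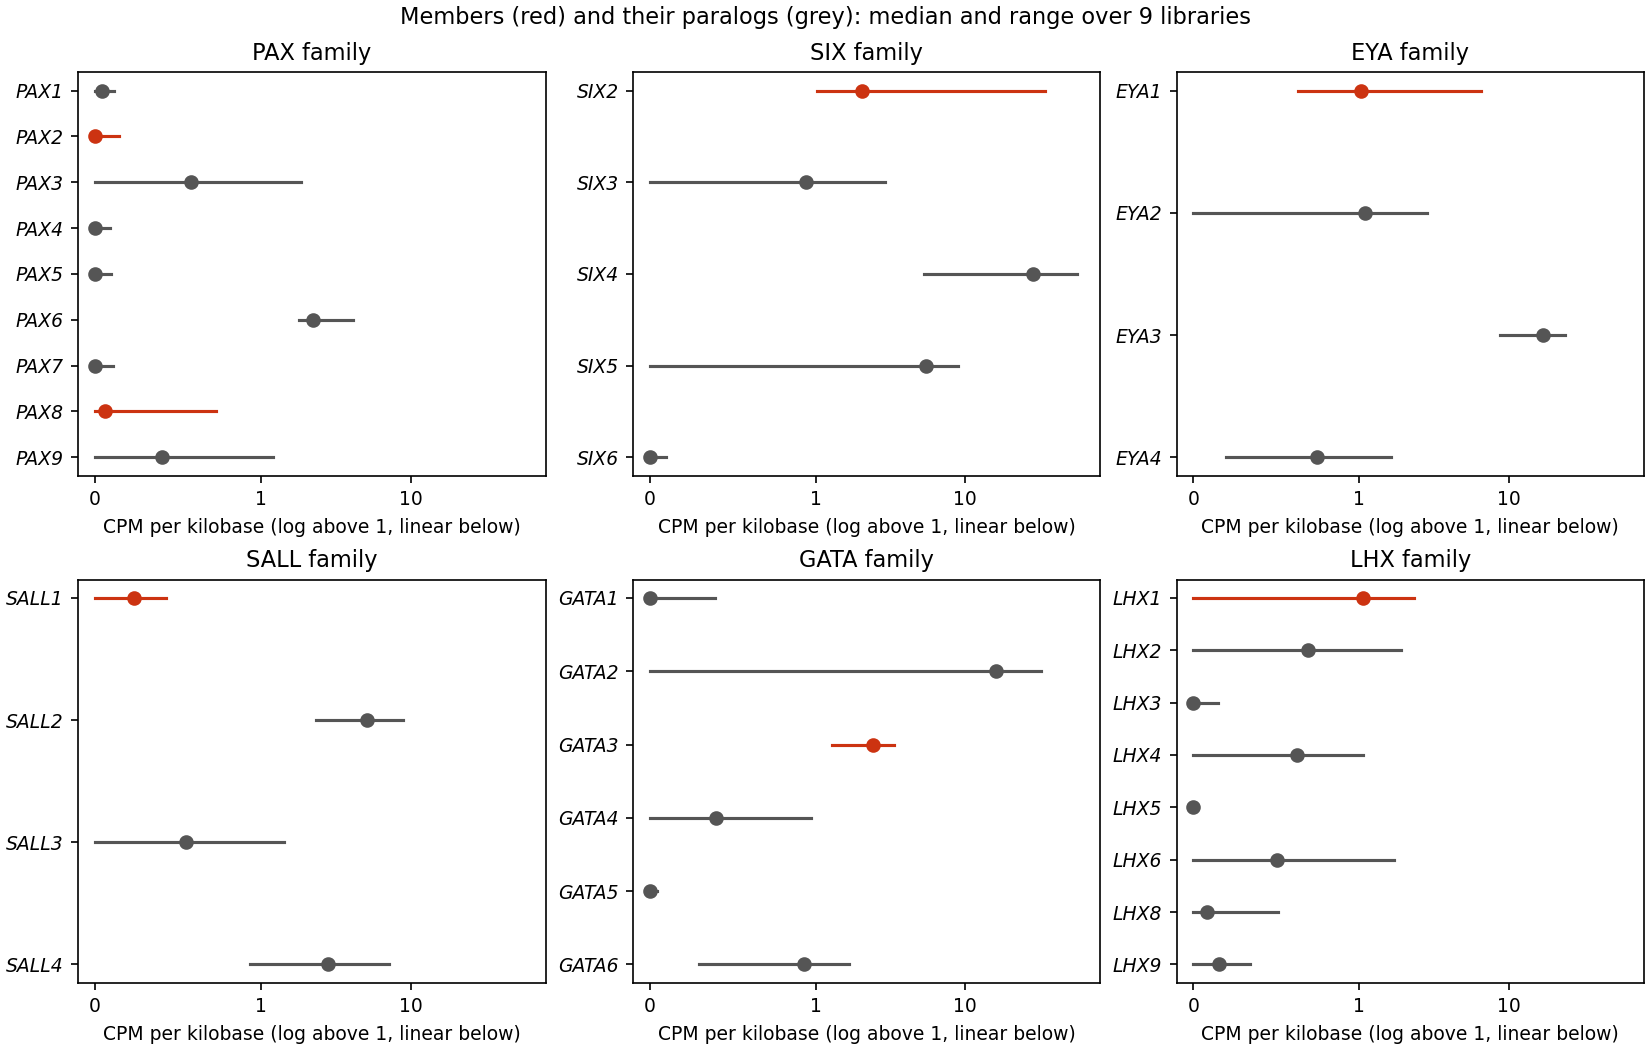
Median (point) and range (line) over the 9 libraries of CPM per kilobase for the 8-gene list's families, members in red and relatives in grey, on an axis that is logarithmic above 1 and linear below. SIX4, EYA3, GATA2, SALL2 and PAX6 have the highest median of their families, and LHX1 that of the LHX family.

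Among 40 other kidney transcription factors, 15 were on in every group, or 37.5%. SIX4 (33.2 to 350 CPM), EYA3 (52.9 to 145 CPM), FOXC1 (0 to 156 CPM) and EMX1 had the highest means. EMX1, a homeobox factor, owed its rank to 1 library, at 1075 CPM in Cas9 replicate 1 against a median of 7.35 CPM. OSR1 and HNF4A had medians of 0. Of the 40, 20 passed the filter and none was called by edgeR in a comparison of 2 groups. At an unadjusted p under 0.05 there were 1 (EMX1) in Cre against Cas9, 3 (EMX1, EYA3 and MEIS1) in Flpo against Cas9 and 3 in Cre against Flpo. DESeq2 called 0, 0 and 2, and limma voom with quality weights 5, 12 and 7. Over all genes tested, 879, 2378 and 4734 of 11905 had an unadjusted p under 0.05 in these comparisons, DESeq2 called 4, 1065 and 3976 of 11812, and voom called 3960, 7268 and 8043 of 11905. The 20 had median log2 fold changes of -0.34 in Cre against Cas9, -0.35 in Flpo against Cas9 and 0.23 in Cre against Flpo. The medians of all genes tested were -0.22, 0.05 and -0.34.

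Of 22 kidney signalling genes, 9 were on in every group, led by BMP7 (35.1 to 127 CPM), FGFR1 (28.1 to 112 CPM) and FGFR2 (9.96 to 88.9 CPM); the BMP inhibitor GREM1 ranged from 1.25 to 35.9 CPM. RET, the GDNF receptor, had a median of 0.340 CPM and its co-receptor GFRA1 one of 3.04 CPM. Of the 22, 11 were tested, and GDNF in Cre against Flpo was the 1 call by edgeR. DESeq2 called GDNF there and in Flpo against Cas9 and no other gene of the list. The 11 had median log2 fold changes of -0.03, -0.65 and 0.59 in the same 3 comparisons.

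Genes of the mature nephron were mostly low: 2 of 20 were on in every group, NPHS1 (the slit diaphragm protein nephrin, 1.19 to 58.3 CPM) and CDH1 (E-cadherin, 1.30 to 32.5 CPM). CUBN reached 17.1 CPM and PODXL 7.04 CPM, each with 0 in some library. UMOD, SLC34A1, SCNN1B and CDH16 had no count in any library, and neither of the 2 tested genes was called by edgeR or DESeq2 or had an unadjusted p under 0.05; limma voom with quality weights called 0, 2 and 2. Among 30 factors of other organs, 2 were on in every group, PAX6 and RUNX1 (3.08 to 42.1 CPM), while NKX2-5 (0 to 16.4 CPM) and TP63 (0 to 15.7 CPM) were uneven. Of these 30, 4 were tested and edgeR called none; NKX2-5 alone had an unadjusted p under 0.05, in Cre against Flpo, where DESeq2 called it, and limma voom with quality weights called 0, 2 and 3. The members' share of 25.0% on in every group stood between those of the other kidney factors (37.5%) and of the factors of other organs (6.67%), and no test of these shares was made.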

How the data were processed

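HEK293 RNA, taken with TRIzol, was made into TruSeq libraries, per the labels' protocols. What the authors deposited are estimated counts by gene symbol, not normalized; Salmon 0.14.1 and hg38 are named in the submitters' processing notes, without their roles. Between 48.7% and 60.8% of values above 0 in a library were not whole. The deposited estimated counts were rounded to whole numbers. CPM used the library total without further scaling. The members and lists were chosen with earlier results of these data known.

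Groups were taken from the sample titles. The quasi-likelihood test of edgeR 4.0.16 under R 4.3.3 was fitted to all 9 libraries with TMM scaling, after edgeR's filter (minimum count 10, minimum total 15), with Benjamini-Hochberg adjustment over 11905 genes and a threshold of 0.05. The SE is the size of the log2 fold change over the root of the F statistic. The code was tested on simulated counts with less spread between libraries than these data, which checks the code and not the power of the test here. The text names all 8 members, list genes past the threshold, the 4 list genes highest by mean CPM, and the 3 genes most like a member with a mean of at least 50 counts, which only SIX2 had; others were named after their values were seen. Transcript lengths, positions and types are from GENCODE 29, which matched 35378 symbols. Alternatives used DESeq2 1.42.0, limma 3.58.1 (voom with quality weights), other scalings, filters, a depth covariate, a replicate block and omitted libraries. Values of some list genes are not reported here.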

Additional observations from a re-analysis of the deposited data

Results flagged for a closer look

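SIX2 differed between the Cre and Flpo groups by a test of the difference itself, with a log2 fold change of -4.04 in Cre against Flpo (edgeR quasi-likelihood test, adjusted p = 0.0201) and all 3 Flpo libraries above all 3 Cre libraries. GDNF differed between the same groups in the other direction, by 1.89 on the log2 scale (adjusted p = 0.0444), with all 3 Cre libraries above all 3 Flpo libraries. In that comparison 20.5% of all genes tested were called. In CPM, libraries that did not overlap were found with Flpo above Cre for 14.4% of genes and with Cre above Flpo for 28.6%. After TMM scaling, which the test used, all Flpo libraries lay above all Cre libraries for 27.9% of genes.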

How the results depend on the processing

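Of the members, 0 passed the threshold in Cre against Cas9 under every alternative run. In Flpo against Cas9 the count rose from 0 to 1 (SIX2) with DESeq2, without the filter, with voom quality weights and with Cre replicate 2 and Flpo replicate 2 both left out (added after seeing the data), fits that called 1065, 1169, 7268 and 2966 genes in all against 27; leaving out single libraries gave 0 to 1. In Cre against Flpo the count of 1 became 0 with the stricter filter of 50 counts in 3 libraries, which left no member to test, 2 (EYA1 and SIX2) with voom weights and 0 with the log2 total as a covariate, with 1994, 8043 and 0 genes called in all against 2440; leaving out single libraries gave 0 to 2. For any difference the count of 1 became 0 with the stricter filter, 2 with voom weights and 0 with the covariate (983, 9475 and 0 genes in all against 1132), and 0 to 1 without single libraries. The 2 members on in every group became 0 at a threshold of 5 CPM, 1 (GATA3) when all 3 libraries had to be above, 1 with both doubted libraries left out, and 1 to 2 without single libraries, Cre replicates 2 and 3 being those whose absence leaves GATA3 alone. The cause was not tested beyond what the filter itself removes.

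With the covariate, log2 fold changes reversed to 0.24 for SIX2 in Cre against Cas9, 1.20 for EYA1 in Flpo against Cas9 and -1.19 for EYA1 in Cre against Flpo. Leaving out single libraries gave -0.63 to 0.11 for SIX2 in Cre against Cas9 (positive without Cas9 replicate 3), -0.88 to 0.16 for EYA1 in Flpo against Cas9 (positive without Cas9 replicate 1) and -0.15 to 0.42 for GATA3 in Cre against Cas9 (negative without Cas9 replicate 1). GATA3 in Cre against Cas9 was -0.18 with voom weights, and in Cre against Flpo 0.30 without TMM. SIX2 in Cre against Flpo kept its direction in all 18 alternatives (-4.58 to -2.19) and passed in 13.

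No pairing of libraries by replicate number was seen. Correlations of same-numbered deviations were -0.48, -0.14 and -0.37 for Cre and Cas9, -0.55, -0.26 and 0.53 for Flpo and Cas9, and 0.37, 0.19 and -0.21 for Cre and Flpo. With 3 libraries a group these values cannot exclude a pairing. With the replicate block, 0, 0, 1 and 1 members were called in the 4 tests, in fits that called 0, 6, 1568 and 426 of 11905 genes. GDNF in Cre against Flpo had an edgeR adjusted p of 0.0810 there.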
